A study of Homo sapiens with 6 samples.

Results

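Surface receptor and ectoenzyme genes of myeloid cells were followed in K562 cells with and without hyperoside, chosen by name out of the 24960 genes of the count table. They are FPR1 and FPR3, C3AR1, C5AR1 and CR1, LILRA2 and LILRB4, SIRPA and SIRPB1, and ANPEP, 10 genes in all. The list was drawn up with the differences between the same libraries known, so the values of these 10 genes are given as a description with no p-value. Their fitted fold changes, SEs and calls describe how they came out of the fit over all genes and are not evidence for a change in the list. K562 is an established line from human chronic myeloid leukemia (CML) that grows in suspension, and the labels give its tissue as bone. There were 6 RNA libraries, of which 3 were controls and 3 had received 2 mM hyperoside, a flavonol glycoside from plants. All libraries share the cell line, grown in RPMI-1640 with serum, and neither the time of exposure nor a vehicle in the controls is given for these libraries in the sources used here. Nothing in the labels says that replicates came from separate cultures. The p-values set the group difference against the spread between these libraries, which may be technical.

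FPR1 senses peptides that start with formylmethionine, which bacteria and mitochondria release, and guides phagocytes towards them. FPR3 belongs to the same receptor family. C3AR1 and C5AR1 bind the small fragments C3a and C5a that are cut off during complement activation, and all of these are G protein-coupled receptors. CR1 binds the larger fragments C3b and C4b on coated particles, takes part in immune adherence and helps to inactivate them. LILR and SIRP genes encode immunoglobulin-like receptors in pairs of opposite sign, in which LILRB4 and SIRPA recruit phosphatases through inhibitory tyrosine motifs, while LILRA2 and SIRPB1 lack such motifs and signal through the adaptors FCER1G and TYROBP. ANPEP encodes aminopeptidase N (CD13), a membrane enzyme used as a marker of the myeloid lineage.

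Each library held between 35613283 and 36754725 counts over its genes. Values are given as normalized CPM, in which counts are scaled to a common library total adjusted by edgeR's TMM method, and 3 counts, the most that a count of 0 allows, correspond to 0.0817 to 0.0853 CPM. In the fit across the 15095 tested genes, a gene was called when its adjusted p was under 0.05 and its fold change above 2. The markers of the K562 line were all present, with 12 of 12 erythroid and megakaryocytic genes tested and a summed level of 5811 to 7284 CPM in the control group and 5051 to 6021 CPM in the hyperoside group. Of these 12 genes 1, EPOR, was called higher and 0 lower, where 6.43% and 3.76% of all tested genes were. The fetal globin gene HBG2 had 1144 to 1535 CPM in the controls and 692 to 827 CPM with hyperoside. The transferrin receptor gene TFRC had 553 to 673 CPM and 979.9 to 1274 CPM. HBE1, the largest part of the summed level, had 2754 to 3541 CPM in the controls and 2030 to 2476 CPM with hyperoside. KLF1 had 31.2 to 45.1 and 65.0 to 77.3 CPM, and ALAS2 164.4 to 207.4 and 250.5 to 261.4 CPM. These genes of the list were named after their values were seen. In the bulk RNA used here, a change in the share of cells that carry a transcript and a change in its amount per cell cannot be told apart.

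Of the 10 genes, 9 were called higher in the hyperoside group and 0 lower, where 6.43% of all tested genes were called higher and 3.76% lower, or 10.2% in either direction. C5AR1 was the one not called. In the same 9 genes the lowest hyperoside library lay above the highest control library, which was the case in 27.1% of all tested genes. Because the genes were chosen from this contrast, nothing is read from either count. All 10 passed the filter on low counts, but only 5 of them, namely FPR3, C3AR1, CR1, LILRA2 and ANPEP, would have passed on the control libraries alone. The other genes entered through the hyperoside libraries.

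**Figure D1:**
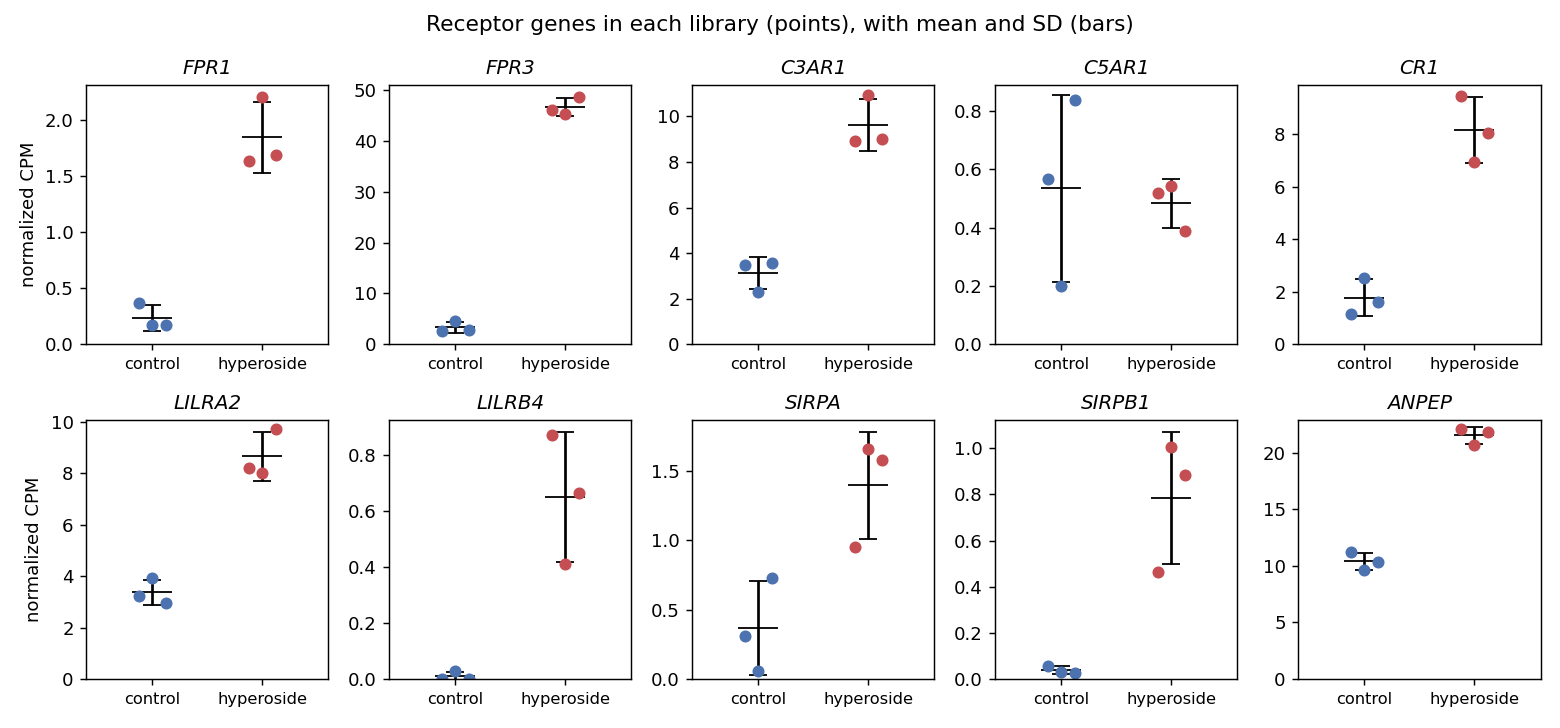
Normalized CPM (vertical axes, each starting at 0) of the 10 genes in the 3 control and 3 hyperoside libraries. Points are libraries, and bars give the mean and SD. FPR3 has the highest hyperoside values, 45.3 to 48.8 CPM, and C5AR1 is the gene whose groups overlap.

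Reference sequence upstream of the start site was available for 7 of the 10 genes in the RefSeq table on GRCh38.p14, and FPR3, SIRPA and SIRPB1 had no entry. Of these windows, 5 are shown because they set the single gene whose groups overlapped, C5AR1, beside 2 chemoattractant receptor genes that were called higher and beside the LILR pair. Each holds the 250 bases before an annotated start, 5′ to 3′. Capitals mark a match on either strand to any of the 6 motifs searched. In C5AR1 and LILRA2 that start lies inside the gene span given below, so these windows are not upstream of the whole gene. At the end of the FPR1 window the capitals are cut, as the last base of its TGANTCA match lies after the start.
FPR1 (- strand, chr19:51751879-51752128): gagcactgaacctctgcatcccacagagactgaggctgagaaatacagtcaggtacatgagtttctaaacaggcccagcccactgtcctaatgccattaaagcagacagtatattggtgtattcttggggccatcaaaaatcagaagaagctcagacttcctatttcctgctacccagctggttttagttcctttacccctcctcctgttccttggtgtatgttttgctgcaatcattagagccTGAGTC
C3AR1 (- strand, chr12:8066360-8066609): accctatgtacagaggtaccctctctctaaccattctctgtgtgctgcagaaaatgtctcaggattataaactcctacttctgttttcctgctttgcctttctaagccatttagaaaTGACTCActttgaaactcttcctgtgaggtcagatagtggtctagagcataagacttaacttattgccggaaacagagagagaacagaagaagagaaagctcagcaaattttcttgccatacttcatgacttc
C5AR1 (+ strand, chr19:47309611-47309860): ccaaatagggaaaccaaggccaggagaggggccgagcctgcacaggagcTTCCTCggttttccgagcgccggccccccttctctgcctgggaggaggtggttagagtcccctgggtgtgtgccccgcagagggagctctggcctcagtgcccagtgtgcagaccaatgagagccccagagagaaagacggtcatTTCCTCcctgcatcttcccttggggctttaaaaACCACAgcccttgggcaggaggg
LILRA2 (+ strand, chr19:54573581-54573830): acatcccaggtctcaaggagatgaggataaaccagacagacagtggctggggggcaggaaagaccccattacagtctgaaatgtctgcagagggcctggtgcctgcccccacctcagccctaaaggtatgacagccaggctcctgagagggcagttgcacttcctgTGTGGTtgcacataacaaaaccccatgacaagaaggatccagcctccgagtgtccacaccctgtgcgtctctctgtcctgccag
LILRB4 (+ strand, chr19:54662735-54662984): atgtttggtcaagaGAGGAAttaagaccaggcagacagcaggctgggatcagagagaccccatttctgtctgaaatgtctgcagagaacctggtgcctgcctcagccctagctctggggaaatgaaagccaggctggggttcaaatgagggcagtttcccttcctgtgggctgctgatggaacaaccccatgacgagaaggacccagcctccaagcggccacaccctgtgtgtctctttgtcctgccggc

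The motifs were searched in windows that also held the first 50 bases after the start, so 300 bases each, among 35116 promoters. A gene was counted when any of its windows matched, and LILRA2 and ANPEP had windows at different starts. The percentages are shares of single windows, so the measures are not quite alike. GAGGAA, the core bound by PU.1 and other ETS factors, was found in C5AR1 and LILRB4, 2 of the 7 genes, against 27.9% of all promoters. TGTGGT, the RUNX core, was found in C5AR1, CR1, FPR1 and LILRA2, 4 of 7, against 13.1%, and in FPR1 it begins 42 bases after the start, outside the stretch shown. TGANTCA, the AP-1 site, was found in C3AR1 and FPR1, 2 of 7, against 7.71%. The C/EBP motif TTGCNNAA, the GATA motif AGATAA and the STAT motif TTCNNNGAA were found in 0 of 7, against 10.5%, 10.3% and 7.66%. The window of C5AR1, which was not called, thus carried both GAGGAA and TGTGGT, and that of LILRB4 shared only GAGGAA with it. The windows of LILRA2 and LILRB4 were alike over most of their length, with 232 of 291 aligned bases identical (79.7%), yet the TGTGGT of LILRA2 was not matched in LILRB4. These matches describe letters in short windows and do not show binding.

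Among the formyl peptide receptors, FPR3 was the gene with the highest level of the 10 in the hyperoside group. Its position is chr19:51795157-51826190 on the plus strand of GRCh38.p14, the build of all positions given here. FPR3 had 2.67, 4.60 and 2.71 CPM in control replicates 1, 2 and 3, and 46.2, 45.3 and 48.8 CPM in hyperoside replicates 1, 2 and 3. The groups were far apart, and the hyperoside libraries lay close together. The control mean was 3.33 ± 1.10 CPM and the hyperoside mean 46.8 ± 1.77 CPM (SD, n = 3 each). The log2 fold change of 3.81 (SE 0.16) ranked 22 of the 15095 tested genes. Without control replicate 2, the highest control, the log2 fold change was 4.11.

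FPR1, the high-affinity formyl peptide receptor of neutrophils and monocytes, is at chr19:51745172-51751878 on the minus strand. Its control libraries held 13, 6 and 6 counts and its hyperoside libraries 60, 81 and 61, or 0.236 ± 0.116 and 1.84 ± 0.315 CPM (SD, n = 3 each). No control library reached the lowest hyperoside library, and control replicate 1 stood above the other controls. The log2 fold change was 2.95 (SE 0.46), or 3.42 without control replicate 1. Per length, FPR3 exceeded FPR1 in every library, with 5.18 to 19.4 times the FPKM of FPR1 in the control libraries and 14.7 to 20.7 times in the hyperoside libraries. FPKM values divide the counts by gene length and library total. These ratios rest on 6 to 13 FPR1 counts in the control libraries, and the ranges of the groups overlapped. The remaining family gene, FPR2, named after its values were seen, held 1, 1 and 5 counts in the controls against 7, 15 and 13 with hyperoside and did not pass the filter on low counts.

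Next came the receptors for complement fragments. C3AR1, the C3a receptor gene at chr12:8056844-8066359 (minus strand), held 122, 81 and 127 counts in its control libraries against 328, 402 and 325 with hyperoside. The lowest hyperoside library was above every control. The means were 3.11 ± 0.700 and 9.63 ± 1.14 CPM (SD, n = 3 each), 1.63 apart on the log2 scale (SE 0.19). C5AR1, the C5a receptor gene at chr19:47307477-47322066 (plus strand), held 20, 7 and 30 counts in its control libraries against 19, 20 and 14 with hyperoside. The 3 hyperoside libraries lay inside the range of the controls. The means were 0.536 ± 0.322 and 0.483 ± 0.0840 CPM (SD, n = 3 each), with a log2 fold change of -0.15 (SE 0.56). Its sign rested on single libraries, being -0.54 without control replicate 2 and 0.33 without control replicate 3. The summed counts, 57 against 53, gave a ratio of 0.901 with an exact 95% interval of 0.608 to 1.33, which covers counting error only. No difference in C5AR1 was detected.

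CR1 spans chr1:207496157-207641765 on the plus strand. It had 1.17, 2.53 and 1.62 CPM in the control replicates and 9.45, 6.94 and 8.06 CPM in the hyperoside replicates. The groups were apart, although each spread over a wide range. The log2 fold change was 2.20 (SE 0.24), from 1.77 ± 0.693 to 8.15 ± 1.26 CPM (SD, n = 3 each). Its adjacent homologue CR1L, which starts 3368 bases beyond CR1, went the other way, from 40.5 ± 2.89 to 29.5 ± 1.43 CPM (SD, n = 3 each). The CR1L log2 fold change was -0.46 (SE 0.09), with an adjusted p of 0.000582 from edgeR's quasi-likelihood test. CR2, the neighbour on the other side and the receptor for C3d on B cells, had 5.13 ± 0.995 and 5.33 ± 0.397 CPM (SD, n = 3 each), with an edgeR adjusted p of 0.833. The differences between these 3 adjacent genes were not tested. Of the 100-base windows in the longest annotated CR1 transcript, 3.72% also occur in transcripts of other genes, CR1L among them, so a small share of reads could be assigned either way.

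The LILR genes lie together in the leukocyte receptor region of chromosome 19. LILRA2, at chr19:54572988-54590287 on the plus strand, encodes an activating receptor that senses cleaved immunoglobulin. It had 3.24, 3.92 and 2.94 CPM in the control replicates and 8.23, 8.01 and 9.75 CPM in the hyperoside replicates. The groups did not overlap, and replicates within a group were close. Its log2 fold change was 1.36 (SE 0.18), from 3.37 ± 0.502 to 8.66 ± 0.947 CPM (SD, n = 3 each). LILRB4, at chr19:54662985-54668718 on the same strand, encodes an inhibitory receptor of monocytic cells. The control libraries held 0, 1 and 0 of its counts and the hyperoside libraries 32, 15 and 24. It was under 3 counts in every control and detected in each hyperoside library. The summed counts were 1 against 71, a ratio of 68.8 with an exact 95% interval of 11.95 to 2754 for counting error only. The fitted log2 fold change of 5.66 depends on the small count added in the fit, and it moved from 5.20 to 7.55 as single libraries were left out.

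The 2 genes thus differed in the control group, with 357 counts in all for LILRA2 and 1 for LILRB4. Their exons overlap other annotated genes on the same strand, over 15.8% of the exon bases of LILRA2 and 13.0% of those of LILRB4. In LILRA2, 17.3% of 100-base windows were shared with an overlapping annotated gene, whereas in LILRB4 none were. Of the other LILR genes, LILRA6 held 11, 15 and 3 counts in the controls against 14, 13 and 32 with hyperoside, and LILRB3 held 19, 21 and 29 against 27, 21 and 33. Neither was called, with edgeR adjusted p of 0.233 and 0.770. LILRA1, LILRA5, LILRB1, LILRB2 and LILRB5, named after their values were seen, had at most 6 counts in any library and were not tested.

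SIRPA is at chr20:1894167-1940592 on the plus strand, and SIRPB1 at chr20:1561385-1620009 on the minus strand. SIRPA encodes the inhibitory receptor for CD47 that restrains phagocytosis. SIRPA held 11, 2 and 26 counts in the controls against 35, 61 and 57 with hyperoside. The groups did not overlap, but control replicate 3, at 0.728 CPM, came near hyperoside replicate 1, at 0.954 CPM. The log2 fold change was 1.92 (SE 0.59), from 0.366 ± 0.339 to 1.40 ± 0.387 CPM (SD, n = 3 each). It was 1.42 without control replicate 2 and 2.89 without control replicate 3. It was no longer called without hyperoside replicate 2 or without hyperoside replicate 3, which left 8 of the 10 genes called. The ligand gene CD47, named after its values were seen, had 65.5 CPM on average in the control group and 67.1 CPM in the hyperoside group.

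SIRPB1, the activating counterpart, held 2, 1 and 1 counts in the controls against 17, 37 and 32 with hyperoside. Every hyperoside library stood above the floor of 3 counts, and no control library did. The summed counts were 4 against 86, a ratio of 20.8 with an exact 95% interval of 7.84 to 78.2 for counting error only. SIRPA and SIRPB1 are near-identical in part, as 6.84% of the 100-base windows of SIRPA occur in SIRPB1 transcripts. Reads of one could in part be lost or assigned to the other. The exons of SIRPB1 also overlap another annotated gene on the same strand, over 13.4% of their bases. Of the 100-base windows of SIRPB1, 12.7% were shared with that gene. SIRPB2, the next tested gene beside SIRPB1, rose from 0.190 ± 0.174 to 0.785 ± 0.114 CPM (SD, n = 3 each), or by 2.04 on the log2 scale (SE 0.70), with an edgeR adjusted p of 0.0239. SIRPB2 passed the filter on low counts only through the hyperoside libraries, in which it is high. It lost its call without control replicate 3 and without each of the hyperoside replicates.

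ANPEP is at chr15:89784895-89814852 on the minus strand. It had 11.2, 9.66 and 10.3 CPM in the controls and 22.1, 20.7 and 21.8 CPM with hyperoside. The spread within both groups was the smallest of the 10 genes relative to their means, with coefficients of variation of 7.46% and 3.44%. Its log2 fold change of 1.05 (SE 0.11) was the smallest of the 9, from 10.4 ± 0.776 to 21.6 ± 0.742 CPM (SD, n = 3 each), just past the 2-fold threshold. Among related aminopeptidases, ENPEP, the aminopeptidase A gene, rose from 0.445 ± 0.376 to 1.38 ± 0.455 CPM (SD, n = 3 each), with an edgeR adjusted p of 0.0244. ENPEP likewise passed the filter on low counts only through the hyperoside libraries, in which it is high. Without control replicate 3, or without hyperoside replicate 1 or hyperoside replicate 2, ENPEP was not called.

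**Figure D2:**
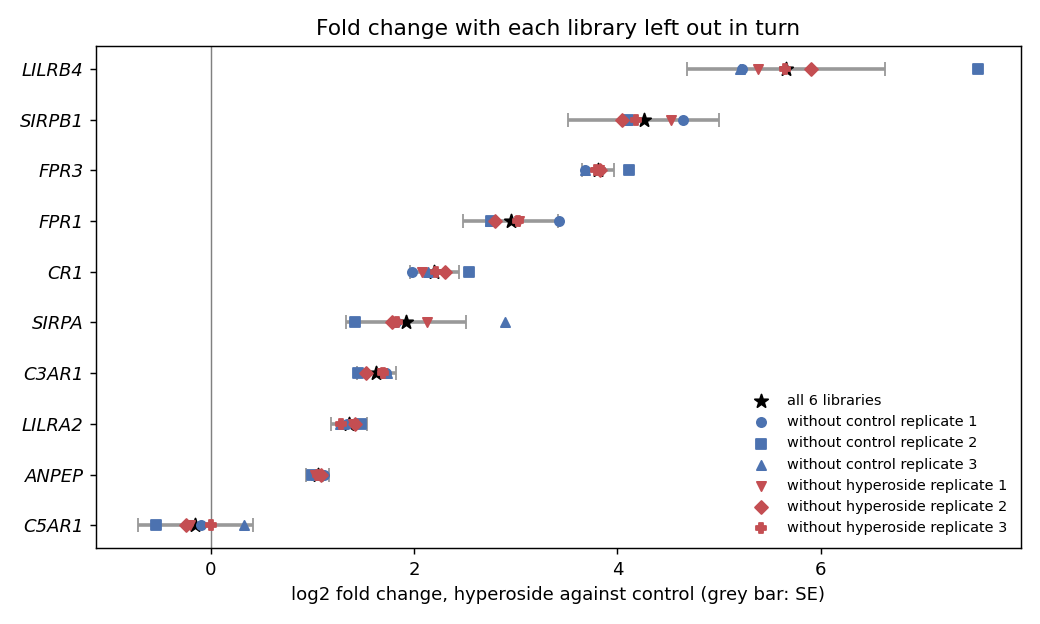
Fitted log2 fold change (horizontal axis) of each gene with all 6 libraries (stars, grey bars give the SE) and with each library left out in turn (blue symbols for a control, red for a hyperoside library). FPR3, C3AR1, LILRA2 and ANPEP stay within narrow ranges, whereas LILRB4 runs from 5.20 to 7.55, SIRPA from 1.42 to 2.89, and C5AR1 from -0.54 to 0.33.

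The levels of different genes were compared per length, as FPKM. In the control group ANPEP was highest, at 2.79 ± 0.164 FPKM (SD, n = 3), above every other gene in all 3 libraries. FPR3 at 1.20 ± 0.406, C3AR1 at 0.875 ± 0.197 and LILRA2 at 0.625 ± 0.0938 FPKM followed, and the ranges of neighbours in this order overlapped. C5AR1, CR1 and FPR1 formed the next step with mean levels of 0.225, 0.176 and 0.118 FPKM and overlapping ranges. SIRPA, at 0.0678 ± 0.0640 FPKM, varied so much that it passed FPR1 in control replicate 3 and fell below LILRB4 in control replicate 2. LILRB4 and SIRPB1 had the lowest means, 0.00404 and 0.00365 FPKM.

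In the hyperoside group FPR3 was highest in each library, at 17.5 ± 0.565 FPKM (SD, n = 3), followed by ANPEP at 5.98 ± 0.219, C3AR1 at 2.80 ± 0.334 and LILRA2 at 1.66 ± 0.171 FPKM. These 4 genes held the same order in all 3 libraries with no overlap between neighbours. FPR1 at 0.961 ± 0.164 and CR1 at 0.834 ± 0.133 FPKM overlapped, as did LILRB4 at 0.285 ± 0.103, SIRPA at 0.266 ± 0.0724 and C5AR1 at 0.210 ± 0.0376 FPKM. SIRPB1 was lowest at 0.0790 ± 0.0285 FPKM. Of the summed FPKM of the 10 genes, FPR3 made up 15.7 to 27.4% in the control libraries and 56.3 to 58.2% in the hyperoside libraries, while ANPEP went from 42.6 to 48.8% down to 19.1 to 20.3%. The SIRPB1 level per length is low in part through the length of 10096 bases by which its counts were divided, against 1950 bases for FPR1.

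**Figure D3:**
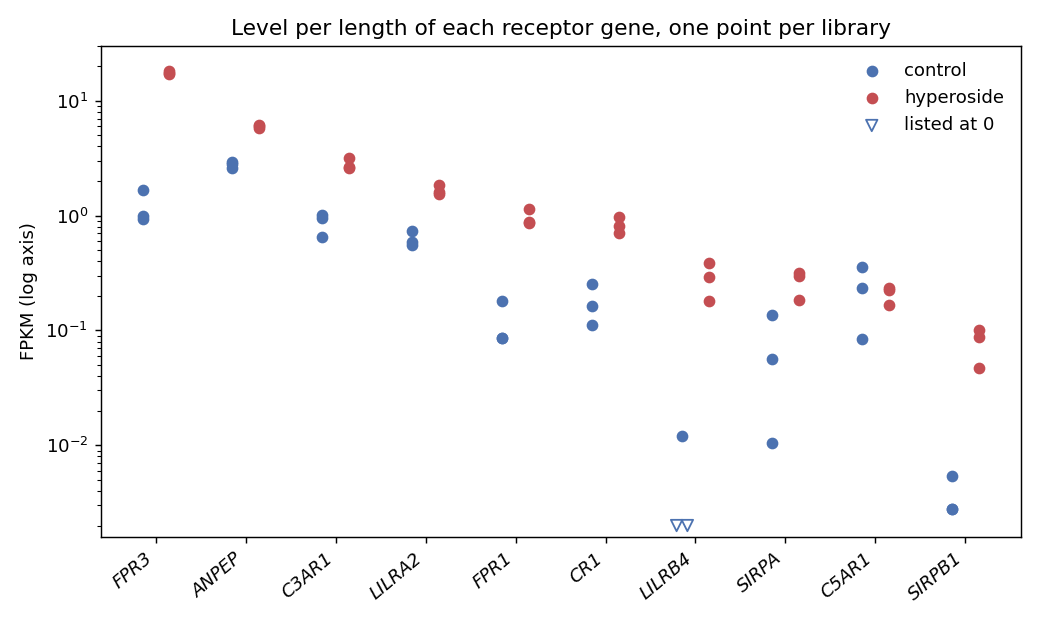
FPKM (log axis) of the 10 genes in each library, ordered by the hyperoside mean. Blue points are control and red points hyperoside libraries, and open triangles mark 2 control libraries in which LILRB4 is listed at 0. FPR3 passes ANPEP in the hyperoside group, and LILRB4, SIRPA and C5AR1 lie at like levels there.

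To set these genes beside others of their kind, 5 gene lists were examined with the same fit, and the median of all tested genes was 0.0032 on the log2 scale. These lists, too, were chosen with earlier results of these data known. Their counts, medians and adjusted p therefore describe the fit and are not independent evidence for a change in a list. The list of family relatives held 29 further FPR, complement receptor, LILR, LAIR, SIRP and aminopeptidase genes, of which 18 were tested. Of these, 3 were called higher and 0 lower (all tested genes 6.43% and 3.76%), and the list had a median of 0.33 on the log2 scale. With the adjusted p alone, 5 were higher and 5 lower, where 22.1% and 23.2% of all tested genes were. The 3 called higher, LAIR1, SIRPB2 and ENPEP, passed the filter on low counts only through the hyperoside libraries, in which they are high, and 0 of the 12 relatives that would pass on the control libraries alone were called higher. LAIR1, an inhibitory collagen receptor of the same chromosome region as the LILR genes, had 0.0281 ± 0.0280 CPM in the control group and 1.08 ± 0.280 CPM in the hyperoside group (SD, n = 3 each). Its edgeR adjusted p was 2.76e-05, and its control level was under that of 3 counts. C5AR2, which encodes another C5a receptor and lies beside C5AR1, had 0.341, 0.227 and 0.308 CPM in the controls, and its edgeR adjusted p was 0.250. With hyperoside it was at 1.25 CPM in replicate 1 and at 0.463 and 0.0831 CPM in the others, above, above and below the controls.

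Of 24 other chemoattractant receptor genes, 13 were tested, and 3 were called higher and 0 lower (all tested genes 6.43% and 3.76%), and the list had a median of 0.59 on the log2 scale. These 3, GPR183, P2RY2 and CCR7, likewise passed the filter only through the hyperoside libraries, and 0 of the 7 that would pass on the control libraries alone were called higher. GPR183, the oxysterol receptor that positions lymphoid and myeloid cells, had 0.171, 0 and 0.0280 CPM in the control replicates and 1.80, 2.91 and 1.41 CPM in the hyperoside replicates (edgeR adjusted p = 1.22e-05). P2RY2, a receptor for extracellular ATP and UTP, rose from 0.170 ± 0.197 to 1.94 ± 0.848 CPM, and CCR7, the receptor for CCL19 and CCL21, from 0.283 ± 0.186 to 1.80 ± 0.216 CPM (SD, n = 3 each). Their edgeR adjusted p were 0.000146 and 0.000275. Without control replicate 3, the number called in this list was 5.

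The largest share was in the list of other inhibitory or paired myeloid receptors, in which 20 of 41 genes were tested. As the lists were chosen with earlier results known, nothing is read from this order. Of the 20, 9 were called higher and 1 lower, or 45% and 5%, beside 6.43% and 3.76% of all tested genes, and the median log2 fold change was 0.94. SIGLEC6, a sialic acid-binding receptor, rose from 15.8 ± 4.36 to 85.1 ± 9.40 CPM (SD, n = 3 each), or by 2.43 on the log2 scale (SE 0.15), with an edgeR adjusted p of 1.30e-09. PECAM1, an adhesion receptor with inhibitory motifs, rose from 9.74 ± 0.718 to 28.0 ± 1.997 CPM and CD300A, an inhibitory receptor for membrane phospholipids, from 3.27 ± 0.404 to 10.5 ± 0.691 CPM (SD, n = 3 each). The edgeR adjusted p were 8.39e-09 and 2.90e-07. CD101, SIGLEC5, SIGLEC9 and SIGLEC14 were also called higher, with log2 fold changes of 2.56, 1.58, 1.51 and 1.28, and SIGLEC10 rose from 1.84 to 3.69 CPM, at the 2-fold threshold. SIGLEC10 was not called without control replicate 1 or 3, or without hyperoside replicate 2 or 3. SIGLEC5 and SIGLEC14 are near-identical in part, so their counts may be split between them. The remaining gene called higher was SIGLEC7, and the one called lower was CLEC4A, both named after their values were seen. CD101 and SIGLEC7 passed the filter only through the hyperoside libraries, and the other 7 genes called higher would pass on the control libraries alone.

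CLEC4A, an inhibitory lectin receptor, fell from 0.868 ± 0.331 to 0.274 ± 0.0978 CPM (SD, n = 3 each, edgeR adjusted p = 0.0181), and it was not called without control replicate 2, hyperoside replicate 2 or hyperoside replicate 3. CD33, the inhibitory SIGLEC used as a myeloid marker and named after its values were seen, had 47.3 CPM on average in the control group and 50.2 CPM in the hyperoside group and was not called. Of the other abundant genes of the list, likewise named, FCGR2A fell from 198.9 to 127.9 CPM and FCGR2B rose from 37.2 to 68.7 CPM, both short of 2-fold (edgeR adjusted p = 2.26e-06 and 1.91e-06).

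**Figure D4:**
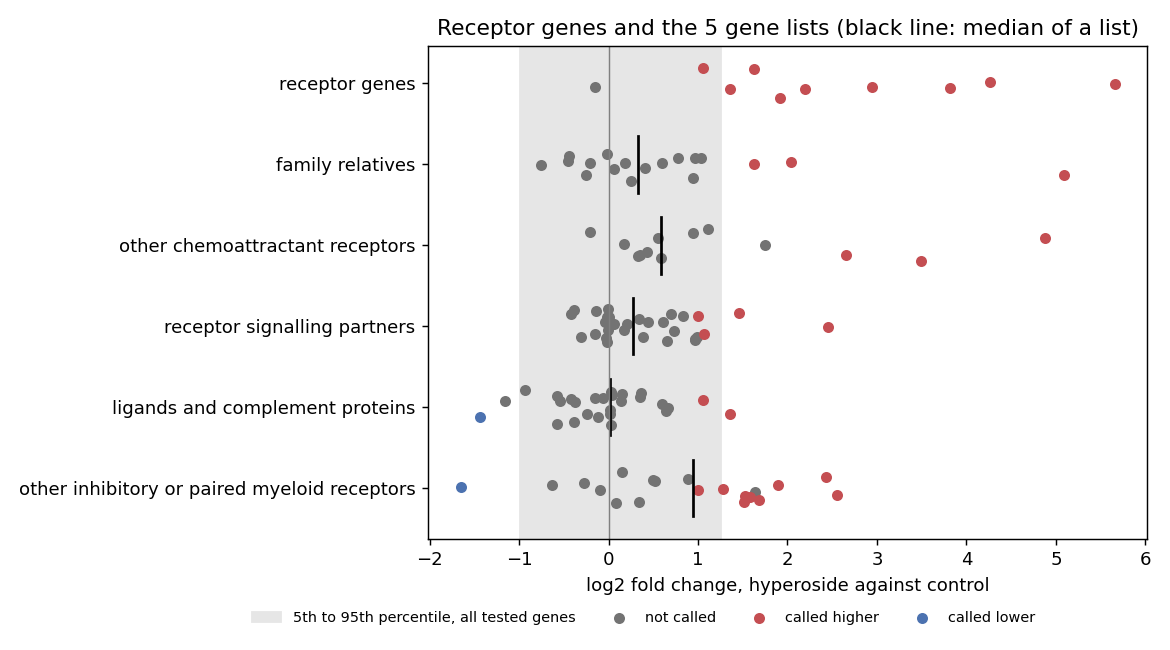
Log2 fold change (horizontal axis) of the tested genes among the 10 receptor genes and the 5 lists, with red for called higher, blue for called lower and grey for not called. The grey band holds the middle of all tested genes, from -0.99 to 1.26 (5th to 95th percentile), and black lines are list medians. The inhibitory or paired receptors have the highest list median, 0.94, and the ligands and complement proteins the lowest, 0.01.

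Signalling partners of these receptors were present in part. Of 40 listed genes 30 were tested, and 4 were called higher and 0 lower (all tested genes 6.43% and 3.76%), and the list had a median of 0.27 on the log2 scale. Of the 4 called higher, 3 would pass the filter on low counts on the control libraries alone. The other 1 passed only through the hyperoside libraries, in which it is high. With the adjusted p alone, 14 were higher and 3 lower, where 22.1% and 23.2% of all tested genes were. INPP5D, the lipid phosphatase SHIP-1 recruited by inhibitory receptors, rose from 7.05 ± 1.05 to 19.3 ± 1.75 CPM (SD, n = 3 each), or by 1.45 on the log2 scale (SE 0.14), with an edgeR adjusted p of 1.59e-07. SH2D1B and FYB1, which encode the adaptor EAT-2 and the adaptor ADAP, rose from 2.47 to 5.17 CPM and from 7.03 to 14.1 CPM, close to the 2-fold threshold (edgeR adjusted p = 0.000636 and 2.33e-05). SH2D1B was not called without control replicate 1 or hyperoside replicate 1, nor FYB1 without either of these or without hyperoside replicate 3.

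The adaptors of the activating receptors differed in level. TYROBP, the partner of SIRPB1, had 4.44, 2.30 and 2.69 CPM in the control replicates and 5.39, 6.13 and 6.84 CPM in the hyperoside replicates. Its log2 fold change was 0.96 (SE 0.23, edgeR adjusted p = 0.00249), short of 2-fold. FCER1G, the partner of LILRA2, held 2, 4 and 2 counts in the controls against 1, 1 and 6 with hyperoside and was not tested. Both were named after their values were seen. PTPN6, the phosphatase SHP-1 bound by SIRPA and LILRB4, likewise named, had 13.3 ± 1.96 and 16.8 ± 1.63 CPM (SD, n = 3 each), with an edgeR adjusted p of 0.0372.

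Of 39 listed ligand and complement genes 27 were tested, and 2 were called higher and 1 lower, or 7.41% and 3.70% beside 6.43% and 3.76% of all tested genes, and the list had a median of 0.01 on the log2 scale. With the adjusted p alone, 3 were higher and 5 lower, where 22.1% and 23.2% of all tested genes were. C5, the precursor of C5a, rose from 2.31 ± 1.10 to 4.82 ± 0.357 CPM (SD, n = 3 each), or by 1.06 on the log2 scale (SE 0.27), with an edgeR adjusted p of 0.00404. It was not called without control replicate 1 or without control replicate 2. LGALS3, the gene of galectin-3, rose from 6.02 ± 0.573 to 15.4 ± 1.28 CPM (SD, n = 3 each, edgeR adjusted p = 3.89e-07). CALR, an endoplasmic reticulum chaperone that also serves as a phagocytic signal at the cell surface, fell from 2422 to 893 CPM, a log2 fold change of -1.44 (SE 0.07, edgeR adjusted p = 1.32e-10). C3, the source of C3a and C3b and named after its values were seen, had 57.4 ± 1.93 and 91.1 ± 13.3 CPM (SD, n = 3 each), with a log2 fold change of 0.67 (edgeR adjusted p = 2.04e-05). HEBP1 of the same list, likewise named, fell from 19.6 ± 2.33 to 10.2 ± 0.794 CPM (SD, n = 3 each). Its log2 fold change was -0.93 (SE 0.12, edgeR adjusted p = 8.50e-06), short of 2-fold.

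Position was not used to choose the genes, and 5 of the 10, FPR1, FPR3, C5AR1, LILRA2 and LILRB4, lie on chromosome 19. The share of all genes on that chromosome was not set beside this, so nothing is read from it. The nearest tested gene on each side of every member that is not itself a member gave 14 different neighbours. Of these, 1 was called higher, SIRPB2, and 0 lower, beside 6.43% and 3.76% of all tested genes. With the adjusted p alone 3 were higher and 3 lower, where 22.1% and 23.2% of all tested genes were. The median log2 fold change of the neighbours was 0.05.

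The KEGG annotation in the deposited table gives 4 of the 10 genes, FPR1, FPR3, C3AR1 and C5AR1, the Staphylococcus aureus infection pathway. Of its 33 other tested genes, 4 were called higher and 1 lower, with a median of 0.36 on the log2 scale, where 6.43% and 3.76% of all tested genes were called. LILRA2, LILRB4, SIRPA and SIRPB1 share osteoclast differentiation, in which 10 of 95 other tested genes were called higher and 2 lower (median 0.07). FPR1, FPR3, C5AR1 and CR1 share neutrophil extracellular trap formation, in which 10 of 127 were called higher and 12 lower (median -0.12). In the neuroactive ligand-receptor pathway, which holds FPR1, FPR3, C3AR1 and C5AR1, 10 of 91 were called higher and 4 lower (median 0.12).

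Markers of mature blood cells were measured beside the receptor genes. Of 14 monocyte and macrophage markers 13 were in the table. CD14, CD163 and MRC1 had under 10 counts in every library, and MARCO was at 0 in all. CD68, most of the sum of the list, had 139.3 to 150.8 CPM in the controls and 171.4 to 199.8 CPM with hyperoside. LYZ had 50.8 to 55.4 and 73.4 to 78.1 CPM, ITGAM 12.7 to 15.1 and 23.1 to 26.2 CPM, and ITGAX 2.93 to 3.73 and 5.50 to 6.20 CPM. S100A9 was low and its groups overlapped, with 0.168 to 0.455 and 0.138 to 0.272 CPM. None of these was called, and all were named after their values were seen. The summed level of the list was 214.8 to 225.7 CPM in the control group and 291.9 to 331.3 CPM in the hyperoside group. Of its 7 tested genes 2, CSF1R and ITGB2, were called higher, where 6.43% of all tested genes were. CSF1R held 16, 5 and 6 counts in the controls against 35, 30 and 34 with hyperoside. It passed the filter on low counts only through the hyperoside libraries, in which it is high. ITGB2 had 2.60 to 4.72 CPM in the controls and 14.3 to 18.1 CPM with hyperoside. The neutrophil and granule markers, 8 of 10 in the table, summed to 8.65 to 10.9 CPM in the control group and 12.5 to 17.3 CPM in the hyperoside group, with ELANE and MMP8 under 10 counts in every library. LTF, the lactoferrin gene, was the only gene called higher of the 5 tested in this list, beside the same 6.43% of all tested genes. The 9 lymphocyte markers summed to 32.4 to 39.0 CPM and 41.2 to 46.2 CPM, most of it CD3D, and 0 of 3 tested genes were called, with CD2, MS4A1, GNLY and PAX5 under 10 counts in every library. Whether the marker genes that moved with the receptors have a part in these results was not tested.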

How the data were processed

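Gene expression was measured by Illumina RNA sequencing in 6 K562 libraries, 3 control and 3 hyperoside. The submitters' processing notes name fastp, HISAT2, HTSeq and hg38, without versions, and the annotation and use of strand are not given in the sources used here. The deposited gene table holds raw counts, to which the authors applied no normalization. The authors also deposited FPKM, the counts divided by gene length and library total. The condition and replicate number came from the labels and the dose from the study's text.

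For the counts, edgeR 4.0.16 (R 4.3.3) was used. After filterByExpr (minimum count 10, minimum total 15), 15095 genes were scaled by TMM, and hyperoside was set against control in a quasi-likelihood fit with no further term. Benjamini-Hochberg adjustment covered all tested genes. The SE is the log2 fold change divided by the square root of F. Ratios of summed counts have exact binomial 95% intervals (scipy 1.17.1). The 10 genes and the 5 lists were chosen with earlier results of these data known. Named were the 10 genes, up to 8 called genes of each list by adjusted p, and every tested FPR, C5AR, CR, LILR and SIRP relative. Other genes are marked in the text. 1 gene that met this rule is not reported here. Positions and promoters came from RefSeq on GRCh38.p14, strands, exon overlaps and shared windows from GENCODE 29 on GRCh38. Proteins were not analysed here. Alternatives with DESeq2 1.42.0 and limma 3.58.1 covered normalization, test, filter, FPKM with added 1 or 0.1, threshold, leaving out single libraries, and a block for the replicate number. In simulated counts for this comparison, 200 of 200 changed genes among 14920 were recovered. The changed genes were drawn only from those with higher counts and were given changes well past the fold threshold. All genes shared a common dispersion. The recovery therefore does not cover genes with low counts, a wide spread or a change near 2-fold. Replicate libraries differed by more than counting error.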

Additional observations from a re-analysis of the deposited data

How the results depend on the processing

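The number of receptor genes called higher was 9 with RLE or upper-quartile scaling, DESeq2, no filter and the adjusted p alone, 8 on log2(FPKM + 0.1), and 7 with a minimum count of 20, where LILRB4, SIRPB1 and C5AR1 were not tested. Leaving out libraries gave 8 to 9 called receptor genes, 864 to 1042 genes higher and 510 to 574 lower over all genes, 1 to 3 family relatives, 3 to 5 chemoattractant receptors, 3 to 5 signalling partners, and 7 to 9 inhibitory or paired receptors higher with 0 to 1 lower. In the same alternatives 1 to 2 ligand and complement genes were higher and 1 to 2 lower, and 0 to 1 neighbouring genes were higher.

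With limma-trend on log2(FPKM + 1), where low FPKM values are compressed by the added 1, 208 genes were higher and 136 lower over all genes, and 204 and 137 without a filter. Under both forms 2 receptor genes (FPR3 and C3AR1), 0 family relatives, 0 chemoattractant receptors, 1 signalling partner, 1 ligand or complement gene, 3 inhibitory or paired receptors and 0 neighbouring genes were called higher, and 0 inhibitory or paired receptors lower. With 0.1 added, 1 family relative, 1 ligand or complement gene and 0 neighbouring genes were higher, and 0 inhibitory or paired receptors lower. Without the fold threshold, 3333 genes passed as higher and 3508 as lower, 5 family relatives were higher and 5 lower, 14 signalling partners were higher and 3 lower, 5 ligand or complement genes and 2 inhibitory or paired receptors were lower, and 3 neighbouring genes were higher and 3 lower.

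As single libraries were left out, C5AR2 ranged from -0.09 (without hyperoside replicate 1) to 1.55 on the log2 scale, and CR2 from -0.06 (without control replicate 2) to 0.22. Single libraries also set some list counts. Family relatives fell to 1 without hyperoside replicate 2, and chemoattractant receptors rose to 5 without control replicate 3. Ligand and complement genes higher fell to 1 without control replicate 1 or 2, and those lower rose to 2 without control replicate 2 or 3. The inhibitory or paired receptor lower was lost without control replicate 2, hyperoside replicate 2 or hyperoside replicate 3, and the neighbouring gene without control replicate 3 or any one hyperoside library. Same-numbered libraries did not deviate together (correlations of -0.081 to -0.0327). With 3 libraries in each group, this cannot show whether same-numbered libraries were made together. With the replicate block, 9 receptor genes were called higher, and 924 genes were higher and 542 lower over all genes. Depth limits LILRB4, SIRPB1, SIRPA, FPR1 and C5AR1, each of which had under 100 counts in every library, and no group of 3 libraries is large enough for a test of single outlying values.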
